A study of Mus musculus with 8 samples.

Results

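The 38 genes described here are transcripts of keratinocytes, the epithelial cells of the epidermis and hair follicle, followed in cells that were sorted from healing mouse skin as wound myofibroblasts. They were chosen by gene symbol, and all 38 were found among the 43346 genes of the authors' table. The mice carried Sm22-Cre and a tdTomato reporter on a mixed background, and viable tdTomato-high cells gave the total RNA of 8 SMART-seq2 libraries (full-length cDNA), 2 for each of days 12, 15, 21 and 26 post wounding. The Sm22 (Tagln) promoter, active in smooth muscle and other contractile cells, drives Cre, so tdTomato records past activity of that promoter, and every group carries both alleles. Unlabelled cells and unwounded skin were not analysed here. Whether both libraries of any day stem from different animals is not stated, so p-values measure the spread between libraries, which may be technical in part. Within days 15 and 21 the libraries differed in transcripts of the sex chromosomes, given below.

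In epidermis, basal keratinocytes make the keratin pair Krt5 and Krt14 and are held to the basement membrane by hemidesmosomes. Cells that leave the basal layer change to Krt1 and Krt10, stay joined by desmosomes and build the cornified envelope. Krt17, Krt6a, Krt6b and Krt16 are keratins of the hair follicle's sheaths and of wounded epidermis. In bulk RNA, fewer cells of a type and less RNA per cell cannot be told apart.

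Values are TPM, which scale transcripts by length and library and set levels of genes side by side per length. TPM keep no depth, so the depth is unknown and no counting interval is given, and a listed 0 does not show that a transcript is absent. Between 13135 and 14147 genes reached 1 TPM per library. The labelled cell type had its transcripts in all libraries, with Col1a1, a fibrillar collagen, between 14131 and 36951 TPM and Acta2, smooth muscle actin, between 292 and 1609 TPM. Xist, which is made from an inactivated X, was at 0.01 and 0 TPM at day 12, 30.7 and 5.54 TPM at day 15, 4.78 and 27.5 TPM at day 21, and 0 and 0.01 TPM at day 26. Ddx3y, a gene of the Y chromosome, was at 0 TPM in PWD15.1 and 7.43 TPM in PWD21.3, and between 23.95 and 33.96 TPM in the other 6 libraries. The labels give no sex, and the libraries within days 15 and 21 differed in these transcripts, whose levels differ between female and male mice. The part of sex in the steps that involve those days was not tested beyond leaving out PWD15.1 and PWD21.3, the libraries with the most Xist. Libraries are called by the names of the authors' value columns.

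The keratinocyte transcripts were scarce at day 12 and highest at day 26. Their summed level was 92.4 and 105 TPM at day 12, then 186 and 227 at day 15, 271 and 265 at day 21, and 575 and 1223 at day 26. The 11 keratins alone summed to 5.1 and 6.02 TPM at day 12, then 42.3 and 92.3 at day 15, 104 and 130.4 at day 21, and 342 and 774 at day 26. In the library with the most, PWD26.2, the 38 genes held 0.122% of all TPM. On day 12, 13 of the 38 genes were listed at 0 in both libraries, among them Krt6a, Dsp, Dsc3, Pkp1, Krtdap and Esrp1. The number of genes at or above 1 TPM was 9 and 8 at day 12, 20 and 22 at day 15, 24 and 21 at day 21, and 27 and 30 at day 26.

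**Figure D1:**
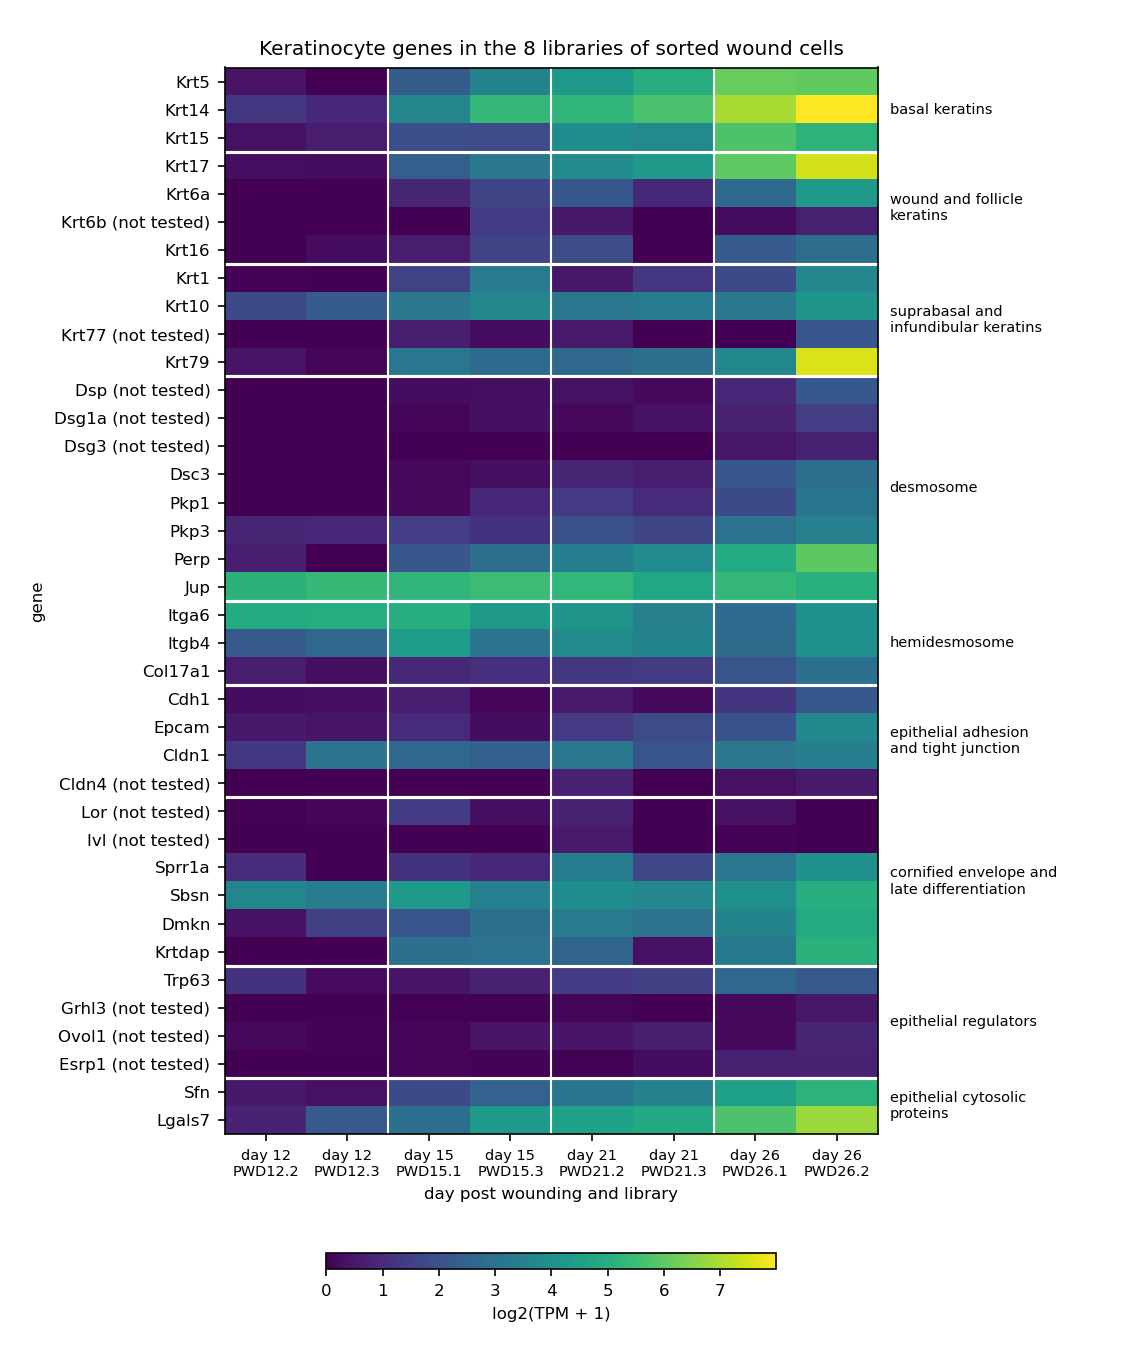
Level of each of the 38 keratinocyte genes as log2(TPM + 1) in the 8 libraries, with genes grouped by role and libraries ordered by day post wounding. Most rows brighten towards day 26, whereas Krt10, Jup, Itga6, Itgb4, Cldn1 and Sbsn were at or above 1 TPM in both libraries of day 12.

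Of the 38 genes, 22 were higher and 1 was lower at day 26 than at day 12, 4 did not pass and 11 were too low to be tested (limma on log2(TPM + 1), Benjamini-Hochberg adjusted p under 0.05 over 15062 tested genes). Over all tested genes, 5.26% were called higher and 11.8% lower. After quantile normalization 23 of the 38 were called higher and 0 lower, with 1162 genes higher and 1215 lower over all, against 792 and 1770 as deposited; with median-of-ratios size factors these were 23, 0, 1234 and 1098. The median log2 change of the 38 genes was 1.91, against -0.20 over all tested genes, and 36 of the 38 were above 0, against 34% of tested genes.

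Testing required at least 1 TPM in at least 2 libraries, and Dsc3 and Cdh1 met this through day 26 alone. With no such requirement all 38 genes were tested, and 20 were called higher and 0 lower, where 2.1% of 25556 genes were called higher. Among the 11 genes tested in that way only, Dsg1a (adjusted p = 0.045), Dsg3 (adjusted p = 0.0151) and Esrp1 (adjusted p = 0.0119) passed by limma. In 32 of the 38 genes both libraries of day 26 lay above both of day 12, as they did for 13.1% of all genes above 0 in a library. Day means ascended through the 4 days for 18 of the 38, against 4.42% of genes.

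The steps between neighbouring days gave few calls. Krt5 was the 1 gene of the 38 that rose in the step to day 15 from day 12, and none fell (0.0863% of tested genes were called higher, 0.073% lower and 0.159% either way), and Krt15 the 1 that rose in the step to day 21 from day 15 (0.491% called higher, 1.4% either way). From day 21 to day 26 limma called 0 of the 38 (0.0996% called higher), with 19 of the 27 tested at an unadjusted p under 0.05, against 18.7% of all tested genes, and 1 after quantile normalization or with median-of-ratios size factors. Both libraries of the later day lay above both of the earlier one for 26 of the 38 genes in the step to day 15, 15 in the step to day 21 and 26 in the step to day 26, against 15.4%, 14.9% and 12% of genes. Steps that share a day share its libraries. Over the 4 days, 18 of the 38 differed (limma F test, adjusted p under 0.05; 12.4% of tested genes did), and 8 without PWD15.1 and PWD21.3. The F test called 11 without PWD12.2 or without PWD12.3. The Krt5 call was lost when any 1 library of days 12, 15 or 21 was left out, with no filter, with both scalings and without the intensity trend. More of the 38 were called higher in that step with log2(TPM + 0.1), at 5, without PWD26.1 or without PWD26.2, at 4 each, and with array quality weights, at 2. The Krt15 call was lost without PWD15.1, PWD21.2 or PWD21.3 and with no filter. From day 21 to day 26, 2 genes were called without PWD26.1.

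Promoter sequences are shown for a basal keratin, a suprabasal keratin, a keratin whose level differed widely between the libraries of day 26, and a secreted protein of late differentiation. RefSeq (GRCm38.p6) listed promoters for 20 of the 38 genes, from 250 bases before the gene start to 50 after it. They were searched on both strands for a TATA box (TATAAA), an AP-1 motif (TGANTCA), a GRHL motif (AACCGGTT) and the half-site of the p53 family, to which Trp63 belongs. No pair of matches of different motifs overlapped in the sequences shown, and capitals mark the matches. The sequences, 5′ to 3′ on the gene's strand, are those of Krt5 (chr15:101712856-101713155, minus strand), Krt10 (chr11:99389315-99389614, minus strand), Krt79 (chr15:101940275-101940574, minus strand) and Krtdap (chr7:30787655-30787954, plus strand).
Krt5: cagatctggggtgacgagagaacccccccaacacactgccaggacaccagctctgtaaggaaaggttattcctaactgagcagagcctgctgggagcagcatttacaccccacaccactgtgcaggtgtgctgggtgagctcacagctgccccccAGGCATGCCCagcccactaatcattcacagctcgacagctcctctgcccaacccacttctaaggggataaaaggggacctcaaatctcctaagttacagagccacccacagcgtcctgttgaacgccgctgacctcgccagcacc
Krt10: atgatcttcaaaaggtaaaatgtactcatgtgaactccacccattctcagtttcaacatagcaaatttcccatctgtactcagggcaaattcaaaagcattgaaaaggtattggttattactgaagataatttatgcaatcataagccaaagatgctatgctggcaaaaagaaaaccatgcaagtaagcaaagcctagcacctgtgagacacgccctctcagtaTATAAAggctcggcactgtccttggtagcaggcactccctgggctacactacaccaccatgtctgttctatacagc
Krt79: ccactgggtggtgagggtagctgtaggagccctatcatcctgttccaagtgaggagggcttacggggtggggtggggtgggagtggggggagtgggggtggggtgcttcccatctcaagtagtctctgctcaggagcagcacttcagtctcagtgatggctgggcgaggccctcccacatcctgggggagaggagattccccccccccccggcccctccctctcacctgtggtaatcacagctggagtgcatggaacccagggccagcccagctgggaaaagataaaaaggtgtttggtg
Krtdap: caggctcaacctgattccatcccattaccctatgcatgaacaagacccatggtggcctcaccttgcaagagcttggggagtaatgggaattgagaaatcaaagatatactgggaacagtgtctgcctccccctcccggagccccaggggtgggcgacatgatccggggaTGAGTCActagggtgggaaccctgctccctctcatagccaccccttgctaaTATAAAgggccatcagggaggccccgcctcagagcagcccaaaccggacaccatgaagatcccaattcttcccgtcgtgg

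The Krt5 window held the p53 family half-site between positions -95 and -86 from the gene start, Krt10 a TATA box between -26 and -21, and Krtdap an AP-1 motif between -81 and -75 and a TATA box between -30 and -25. The Krt79 window held none of the 4 motifs. TGANTCA was in the windows of 7 of the 20 genes, which included all 6 genes of the cornified envelope and late differentiation, against 8.97% of genes in the table. TATAAA was in 6 of the 20 (15.7% of genes), the p53 family half-site in 3, namely Krt5, Dsp and Col17a1 (9.55% of genes), and AACCGGTT in 0 (0.174% of genes). A match is a string of letters, and binding was not measured.

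The basal keratins all rose. Krt5, the type II keratin of the basal layer (chr15:101707070-101712898 in GENCODE vM21 on GRCm38), was at 0.35 and 0 TPM at day 12, then 4.12 and 10.8 at day 15, 18.8 and 30.8 at day 21, and 68.5 and 64.5 at day 26. Every library of a later day lay above every library of an earlier day. Krt5 rose between day 12 and day 26 (log2 change 5.86, SE 0.40, adjusted p = 0.000121) and between day 12 and day 15 (log2 change 2.74, SE 0.40, adjusted p = 0.0484). Krt14, its type I partner (chr11:100203162-100207548), was at 1.47 and 0.91 TPM at day 12, then 11.4 and 38.6 at day 15, 37.2 and 50.8 at day 21, and 124 and 254 at day 26. Days 15 and 21 overlapped for Krt14, and day 26 lay above all other days (log2 change 6.36, SE 0.51, adjusted p = 0.000259 between day 12 and day 26).

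Krt15, a keratin of basal cells and of the follicle bulge (chr11:100131758-100135928), was at 0.27 and 0.57 TPM at day 12, then 2.78 and 2.59 at day 15, 13.8 and 12.4 at day 21, and 53.1 and 35.2 at day 26. No pair of days overlapped. Krt15 had the lowest adjusted p of the 38 genes between day 12 and day 26 (log2 change 4.97, SE 0.26, adjusted p = 4.05e-05) and rose between day 15 and day 21 as well (log2 change 1.94, SE 0.26, adjusted p = 0.0198). Its step from day 21 to day 26 did not pass (log2 change 1.65, SE 0.26, adjusted p = 0.051). The ratio of Krt15 to Krt5 in TPM was between 0.239 and 0.774 in the 6 libraries of days 15 to 26.

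All 3 wound and follicle keratins tested rose between day 12 and day 26. Krt17, of the follicle's outer sheath and of wounded epidermis (chr11:100256217-100261029), was at 0.22 and 0.2 TPM at day 12, then 4.24 and 8.08 at day 15, 13.5 and 18.6 at day 21, and 63.9 and 178 at day 26. The days did not overlap, and its change was the largest of the 27 genes tested (log2 change 6.48, SE 0.45, adjusted p = 0.000134). Krt6a, a keratin of activated and follicular keratinocytes, was at 0 and 0 TPM at day 12, then 0.8 and 2.11 at day 15, 3.61 and 0.89 at day 21, and 5.73 and 18.8 at day 26 (log2 change 3.53, SE 0.58, adjusted p = 0.00477). Krt16, its usual partner, was at 0 and 0.19 TPM at day 12, then 0.56 and 2.1 at day 15, 2.65 and 0 at day 21, and 3.9 and 6.22 at day 26 (log2 change 2.45, SE 0.59, adjusted p = 0.0235). Library PWD21.3, with more Krt5 than PWD21.2, had less Krt6a and a listed 0 for Krt16. Krt6b was highest in PWD15.3, at 1.61 TPM, and was not tested.

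Keratin genes share sequence, and reads from such stretches cannot be placed with certainty. Of the 50-base words in Krt6b transcripts 50.1% occur in transcripts of other genes, mainly Krt6a, and the share was 45.7% for Krt6a, 37.6% for Krt16, 13.9% for Krt14, 8.52% for Krt5 and 3.99% for Krt17. The division of reads between Krt6a and Krt6b and the level of Krt16 are thus uncertain. Krt1, Krt10, Krt77 and Krt79 share no such word. Outside the keratins the share was 35% for Dsg1a, 15% for Sfn, 6.96% for Sbsn and 5.31% for Itga6.

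Both suprabasal keratins tested, Krt1 and Krt10, rose between day 12 and day 26. Krt1, the first type II keratin made on leaving the basal layer, was at 0.05 and 0 TPM at day 12, then 1.95 and 8.89 at day 15, 0.42 and 1.38 at day 21, and 2.38 and 12 at day 26. Both libraries of day 15 were above both of day 21, but the step did not pass (log2 change -1.55, SE 0.70, adjusted p = 0.278), and Krt1 rose between day 12 and day 26 (log2 change 2.69, SE 0.70, adjusted p = 0.0312). That change was 3.66 without PWD26.1 and 1.72 without PWD26.2. Krt10, its partner, was at 2.37 and 4.04 TPM at day 12, then 8.07 and 11.6 at day 15, 7.8 and 8.86 at day 21, and 8.19 and 16.8 at day 26. Its log2 change was the smallest of the 9 tested keratins among the 38 genes (log2 change 1.63, SE 0.36, adjusted p = 0.016). Krt77, a further suprabasal keratin, reached 1 TPM in PWD26.2 alone, at 3.48 TPM.

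Krt79 marks the infundibulum, the upper canal of the mouse follicle (chr15:101929332-101940324). It was at 0.37 and 0.11 TPM at day 12, then 7.86 and 5.69 at day 15, 5.49 and 6.73 at day 21, and 12.25 and 184 at day 26. The libraries of day 26 stood far apart, and days 15 and 21 overlapped. Krt79 rose between day 12 and day 26 (log2 change 5.33, SE 0.94, adjusted p = 0.00674), and its log2 change was 3.43 without PWD26.2 and 7.23 without PWD26.1. Relative to Krt5, as a ratio of TPM, it was at 1.91 and 0.524 at day 15, 0.291 and 0.219 at day 21, and 0.179 and 2.85 at day 26.

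**Figure D2:**
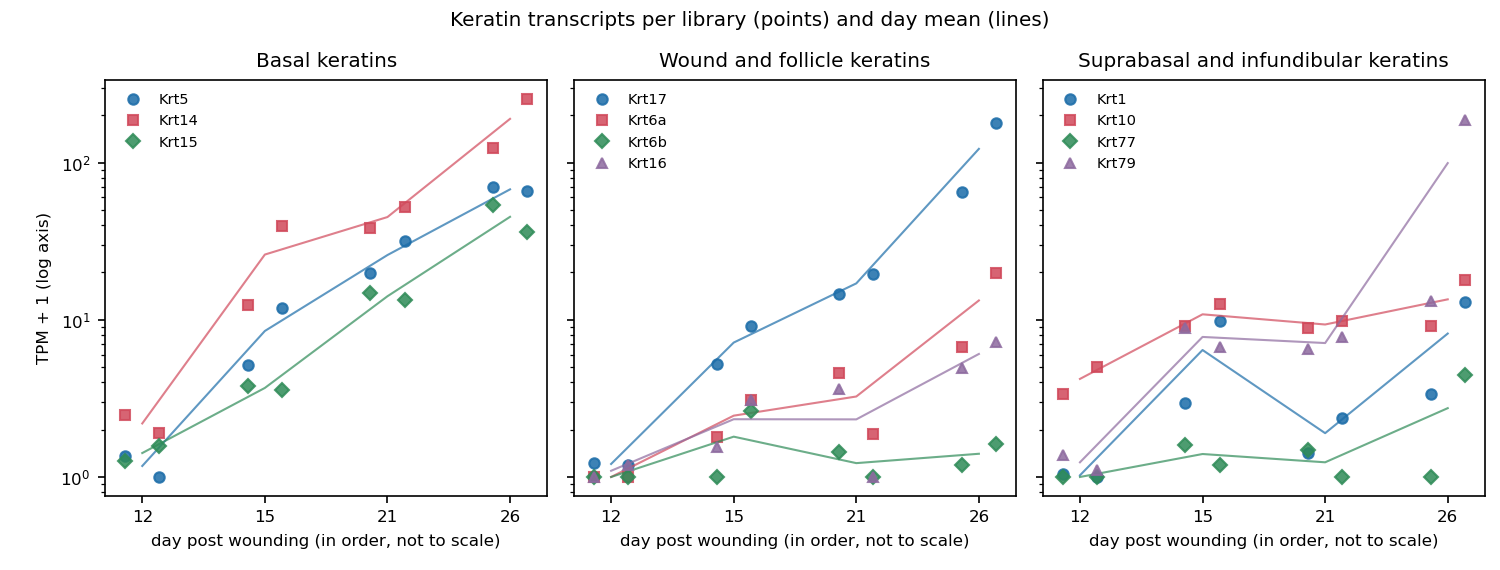
TPM + 1 on a log axis against day post wounding for the keratins, in panels of basal, wound and follicle, and suprabasal and infundibular keratins, with a point for each library and lines through day means. Krt5, Krt14, Krt15 and Krt17 ascend over the days, Krt1 is lower at day 21 than at day 15, and the Krt79 points of day 26 stand apart at 12.25 and 184 TPM.

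The balance of suprabasal to basal transcripts over the days depended on the genes taken. The sum of Krt1 and Krt10 over the sum of Krt5 and Krt14, as a ratio of TPM, was 1.33 and 4.44 at day 12, 0.647 and 0.414 at day 15, 0.147 and 0.126 at day 21, and 0.055 and 0.0903 at day 26. The days did not overlap. Krt14 over Krt5 had no such order, with 2.76 and 3.56 at day 15, 1.97 and 1.65 at day 21, and 1.8 and 3.93 at day 26. Krt1 over Krt5 was 0.473 and 0.819 at day 15, 0.0223 and 0.0449 at day 21, and 0.0347 and 0.185 at day 26. Krtdap over Krt5 was 1.58 and 0.631, then 0.265 and 0.00943, then 0.122 and 0.534. In both, days 21 and 26 overlapped. At day 12 the suprabasal sum was mostly Krt10, at 2.37 and 4.04 TPM, with Krt1 at 0.05 and 0 TPM and Krt5 at 0.35 and 0 TPM. The ratios are a description and were not tested.

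**Figure D3:**
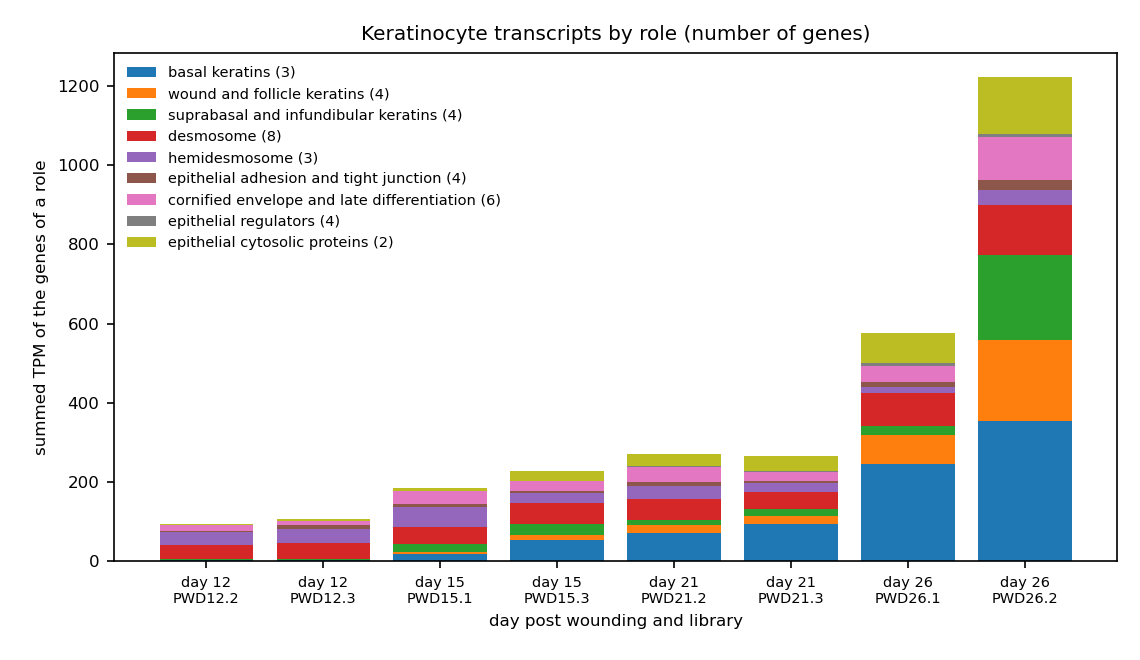
Summed TPM of the 38 genes in each library by role, with libraries ordered by day post wounding. The basal keratins sum to 245 and 353 TPM at day 26, against 2.09 and 1.48 TPM at day 12, while the hemidesmosome genes sum to 15 and 38.4 TPM at day 26, against 33.7 and 35.4 TPM at day 12.

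Of 8 desmosome genes 4 rose between day 12 and day 26, 1 did not pass and 3 were not tested. Perp, a membrane protein of desmosomes and a target of p63, was at 0.58 and 0 TPM at day 12, then 3.53 and 6.46 at day 15, 9.82 and 13.6 at day 21, and 28.3 and 62.1 at day 26, without overlap between days (log2 change 5.10, SE 0.42, adjusted p = 0.000274). Dsc3, a desmosomal cadherin, was at 0 and 0 TPM at day 12, then 0.12 and 0.24 at day 15, 0.83 and 0.6 at day 21, and 3.46 and 6.4 at day 26 (log2 change 2.52, SE 0.33, adjusted p = 0.00183). Day 26 lay above all other days for both. The plakophilins, which anchor the cadherins in the plaque, rose as well, Pkp3 to 6.93 and 10.1 TPM at day 26, against 0.76 and 0.9 TPM at day 12 (log2 change 2.36, SE 0.29, adjusted p = 0.00147), and Pkp1 to 2.45 and 7.55 TPM at day 26, against 0 and 0 TPM at day 12 (log2 change 2.44, SE 0.45, adjusted p = 0.00832). Dsp, the plakin that ties desmosomes to keratin filaments, was at 0.87 and 3.64 TPM at day 26, against 0 and 0 TPM at day 12. The cadherins Dsg1a and Dsg3 were listed at 0 in both libraries of day 12 and were highest in PWD26.2, at 1.74 and 0.68 TPM.

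Jup, plakoglobin of desmosomes and adherens junctions, was high at every day. It was at 34.4 and 39.8 TPM at day 12, then 37.5 and 44 at day 15, 38 and 25.9 at day 21, and 38.9 and 32.9 at day 26, and the days overlapped. It passed in none of the 4 comparisons. Its change between day 12 and day 26 (log2 change -0.05, SE 0.21, adjusted p = 0.908) turned in sign to 0.088 after quantile normalization and 0.177 with median-of-ratios size factors, neither of which passed.

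The 3 hemidesmosome genes differed among themselves. Col17a1, a collagen that spans the basal cell membrane, was at 0.53 and 0.22 TPM at day 12, then 0.86 and 1.13 at day 15, 1.46 and 1.57 at day 21, and 3.34 and 6.64 at day 26, each day above the one before (log2 change 2.08, SE 0.34, adjusted p = 0.00477 between day 12 and day 26). Itga6, the alpha 6 integrin, which endothelial cells also make, was at 29.4 and 29.8 TPM at day 12, then 30.5 and 18.8 at day 15, 17.1 and 10.2 at day 21, and 5.9 and 16.1 at day 26. It was the 1 gene of the 38 that fell (log2 change -1.49, SE 0.42, adjusted p = 0.0426), and both libraries of day 26 lay below both of day 12. Its log2 change was -0.84 without PWD26.1 and -2.15 without PWD26.2. The call was lost after quantile normalization, with median-of-ratios size factors, without the intensity trend, with no filter, without PWD15.1 and PWD21.3 together, and when any 1 of PWD12.2, PWD12.3, PWD21.2, PWD21.3 and PWD26.1 was left out. Itgb4, its partner, was at 3.73 and 5.45 TPM at day 12, then 20.4 and 7.27 at day 15, 13.2 and 11.2 at day 21, and 5.73 and 15.6 at day 26 without passing (log2 change 0.94, SE 0.51, adjusted p = 0.243), and its log2 change was 1.59 without PWD26.1 and 0.28 without PWD26.2.

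Sox10, a gene of Schwann cells and melanocytes, was highest in PWD15.1 and PWD26.2, the libraries with the most Itgb4. The order differed elsewhere. PWD21.3 had 11.2 TPM of Itgb4 and 22.7 TPM of Sox10, and PWD12.3 had 5.45 TPM of Itgb4 and 37.7 TPM of Sox10. The part of Sox10 was not tested. It was at 22.8 and 37.7 TPM at day 12, then 80.7 and 34.8 at day 15, 37.6 and 22.7 at day 21, and 10.1 and 46.5 at day 26. The 8 melanocyte markers summed to 26.9 and 63.2 TPM at day 26, against 37.9 and 51.5 TPM at day 12. Of the 7 tested 1 rose, Mlana (log2 change 1.81, SE 0.51, adjusted p = 0.0427), against 5.26% of all tested genes. Tyr did not pass (log2 change -0.56, SE 0.37, adjusted p = 0.337). The 6 endothelial markers summed to 24.7 and 47.4 TPM at day 26, against 28.6 and 22.6 TPM at day 12, and limma called 0 of 6 between day 12 and day 26, with 0 at an unadjusted p under 0.05; those with the lowest p were Pecam1 (log2 change 0.66, SE 0.38, adjusted p = 0.267) and Vwf (log2 change 0.53, SE 0.32, adjusted p = 0.291).

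Of the adhesion and tight junction genes 2 of 3 tested rose between day 12 and day 26. Epcam, an adhesion molecule of epithelia, was at 0.47 and 0.37 TPM at day 12, then 0.97 and 0.19 at day 15, 1.53 and 2.58 at day 21, and 3.08 and 12.34 at day 26 (log2 change 2.38, SE 0.53, adjusted p = 0.0175). Its log2 change was 3.23 without PWD26.1 and 1.52 without PWD26.2. Langerhans cells also make Epcam, and their part was not tested. Their marker Cd207 was listed at 0 in both libraries of day 26, and Cd74, which other immune cells also make, did not pass (log2 change 0.53, SE 0.36, adjusted p = 0.346). Cdh1, E-cadherin, was at 0.21 and 0.22 TPM at day 12, then 0.6 and 0.11 at day 15, 0.48 and 0.15 at day 21, and 1.36 and 3.59 at day 26 (log2 change 1.44, SE 0.39, adjusted p = 0.0376). Cldn1, the main claudin of epidermis, was at 1.47 and 7.25 TPM at day 12, then 5.46 and 4.44 at day 15, 8.08 and 3.26 at day 21, and 8.05 and 9.64 at day 26 and did not pass (adjusted p = 0.195). Without PWD12.3, the day 12 library with the most Cldn1, its log2 change was 1.99 and passed (adjusted p = 0.037), and without PWD12.2 it was 0.25. Cldn4, another claudin, did not reach 1 TPM.

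Of 6 genes of the cornified envelope and late differentiation 3 rose between day 12 and day 26, 1 did not pass and 2 were not tested. Krtdap, a secreted protein of suprabasal cells, was at 0 and 0 TPM at day 12, then 6.49 and 6.85 at day 15, 5 and 0.29 at day 21, and 8.37 and 34.4 at day 26 (log2 change 4.19, SE 0.74, adjusted p = 0.00671). Its log2 change was 5.15 without PWD26.1 and 3.23 without PWD26.2. Like Krt6a and Krt16, it was lower in PWD21.3 than in PWD21.2. Dmkn, which encodes dermokine, was at 0.31 and 1.84 TPM at day 12, then 3.23 and 6.43 at day 15, 8.63 and 6.94 at day 21, and 11.2 and 28.6 at day 26 (log2 change 3.30, SE 0.50, adjusted p = 0.00355). Sprr1a, a small proline-rich envelope protein, was at 1.01 and 0 TPM at day 12, then 1.24 and 0.85 at day 15, 9.42 and 2.31 at day 21, and 7.75 and 15.31 at day 26 (log2 change 3.07, SE 0.57, adjusted p = 0.00815). For these 3 genes day 26 lay above day 12 without overlap.

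Sbsn, suprabasin, was at 11.7 and 9.37 TPM at day 12, then 19 and 10.2 at day 15, 13.7 and 12.26 at day 21, and 14.8 and 31.1 at day 26 and missed the threshold as deposited (log2 change 0.97, SE 0.37, adjusted p = 0.109). It passed after quantile normalization (adjusted p = 0.0386) and with median-of-ratios size factors (adjusted p = 0.0396). Its log2 change was 1.48 without PWD26.1, where it passed (adjusted p = 0.0335), and 0.46 without PWD26.2. Part of its sequence is shared with the gene Tmem147os. The transcripts of Lor and Ivl, which encode envelope proteins of the outermost layers, stayed low. Lor, loricrin, was highest in PWD15.1, at 1.65 TPM, and Ivl, involucrin, was listed above 0 in PWD21.2 and PWD26.1 alone, at 0.49 and 0.05 TPM.

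Trp63, the p63 factor that specifies stratified epithelium, was at 1.27 and 0.18 TPM at day 12, then 0.36 and 0.67 at day 15, 1.6 and 1.87 at day 21, and 5.46 and 3.69 at day 26 (log2 change 1.75, SE 0.37, adjusted p = 0.0145 between day 12 and day 26). Its ratio to Krt5 was between 0.0572 and 0.0874 in the 6 libraries of days 15 to 26. Grhl3 and Ovol1, factors of epidermal differentiation, and Esrp1, a splicing factor of epithelia, did not reach 1 TPM in any library. Sfn, stratifin, was at 0.47 and 0.28 TPM at day 12, then 2.48 and 4.7 at day 15, 7.7 and 10.3 at day 21, and 22.1 and 35 at day 26 (log2 change 4.39, SE 0.33, adjusted p = 0.000185). Lgals7, galectin-7 of stratified epithelia, was at 0.73 and 3.7 TPM at day 12, then 6.35 and 18.6 at day 15, 23 and 27.1 at day 21, and 52.7 and 110.0 at day 26 (log2 change 4.76, SE 0.57, adjusted p = 0.00126). Days did not overlap for Sfn or Lgals7.

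**Figure D4:**
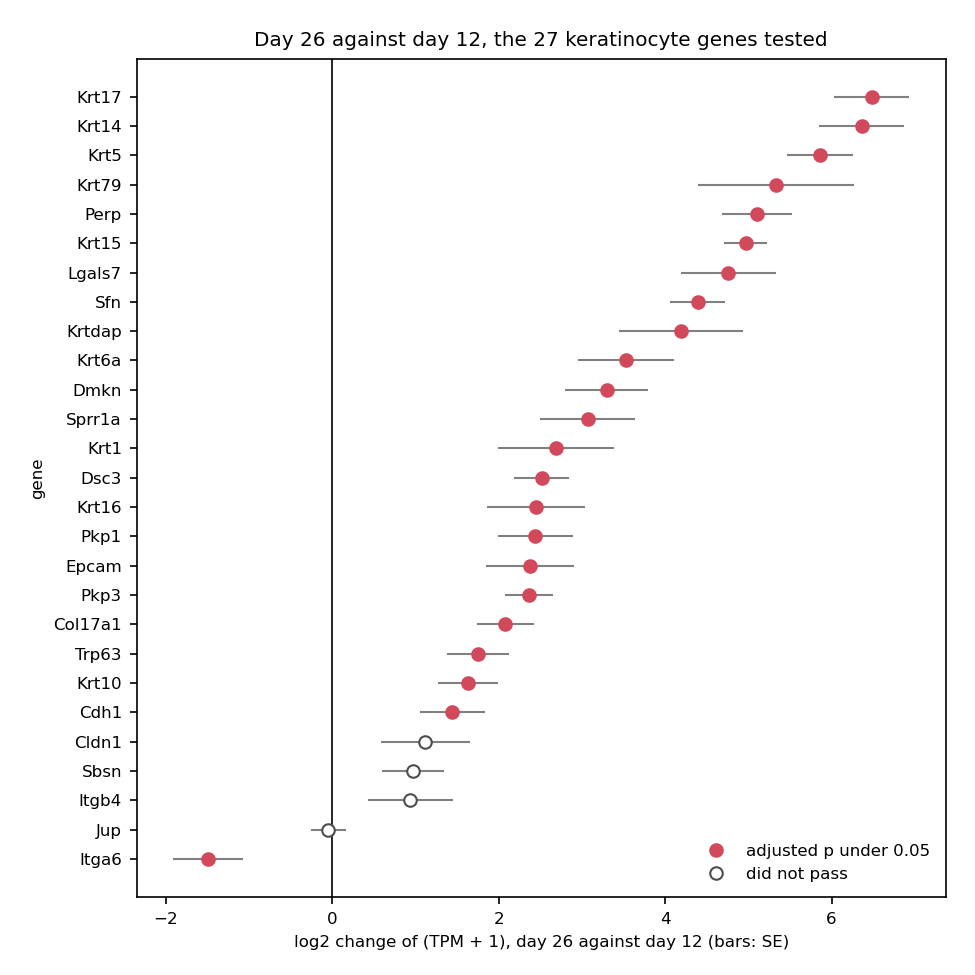
Log2 change of TPM + 1 between day 12 and day 26, with SE bars from the limma fit, for the 27 keratinocyte genes tested, those that passed being marked. The changes of genes that rose run from 1.44 for Cdh1 to 6.48 for Krt17, and Itga6 passed below 0, at -1.49.

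Of the 23 genes called between day 12 and day 26, 14 kept the call and direction with any single library left out, wherever they could be tested: Krt5, Krt14, Krt15, Krt17, Krt6a, Krt79, Dsc3, Pkp3, Perp, Col17a1, Dmkn, Krtdap, Sfn and Lgals7. Dsc3 and Cdh1 were not testable without either library of day 26. Apart from Itga6, calls were lost without PWD12.2 for Krt16, Krt1, Krt10, Pkp1, Cdh1 and Epcam, without PWD12.3 for Krt16, Krt1, Cdh1, Epcam, Sprr1a and Trp63, without PWD21.2 or PWD21.3 for Cdh1, without PWD26.1 for Krt16 and Trp63, and without PWD26.2 for Krt16, Krt1, Krt10 and Epcam. The lone library of a day is then assumed to vary like the others. With PWD15.1 and PWD21.3 both left out the calls of Krt1, Krt10, Cdh1, Epcam and Trp63 were lost. With no filter on low values those of Krt16, Krt1, Krt10, Cdh1 and Epcam were lost, without the intensity trend that of Krt1, and with log2(TPM + 0.1) that of Cdh1.

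The libraries of day 26 differed in which genes were high. Of the 38 genes 32 were higher in PWD26.2 than in PWD26.1, against 57.8% of tested genes, and 28 had their highest value of all libraries in PWD26.2. The 6 genes higher in PWD26.1 were Krt5, Krt15, Trp63, Jup, Lor and Ivl. Krt5 was at 64.5 TPM in PWD26.2 and 68.5 TPM in PWD26.1, while Krt79 was at 184 TPM in PWD26.2 and 12.25 TPM in PWD26.1 and Krtdap at 34.4 TPM in PWD26.2 and 8.37 TPM in PWD26.1. On day 21, 15 of the 38 were higher in PWD21.3 and 23 in PWD21.2, and 37.6% of tested genes were higher in PWD21.3.

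Genes of the hair's inner root sheath and shaft summed to less in PWD26.2 than in PWD26.1. The 17 genes of that list summed to 0.89 and 0.72 TPM at day 12, then 2.31 and 1.49 at day 15, 29.3 and 23.3 at day 21, and 70.4 and 13.8 at day 26. Krt71, a keratin of the inner root sheath, was at 0 and 0 TPM at day 12, then 0.05 and 0 at day 15, 9.75 and 8.21 at day 21, and 33 and 8.97 at day 26. It rose between day 15 and day 21 (log2 change 3.28, SE 0.49, adjusted p = 0.0257) and between day 12 and day 26 (log2 change 4.20, SE 0.49, adjusted p = 0.00112). Krt25, of the same sheath, was at 7.36 and 2.28 TPM at day 26, against 0.19 and 0.08 TPM at day 12 (log2 change 2.21, SE 0.46, adjusted p = 0.0136). Between those days 3 of the 7 genes tested rose, against 5.26% of all tested genes. Krt73 rose between day 15 and day 21 (log2 change 1.72, SE 0.30, adjusted p = 0.0392). Krt73 reached 1 TPM at day 21 alone, so it was tested only through the day where it was high. Krt27 was at 0.51 TPM in PWD26.2 and 17.4 TPM in PWD26.1, and did not pass between day 12 and day 26 (log2 change 2.40, SE 0.94, adjusted p = 0.117).

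**Figure D5:**
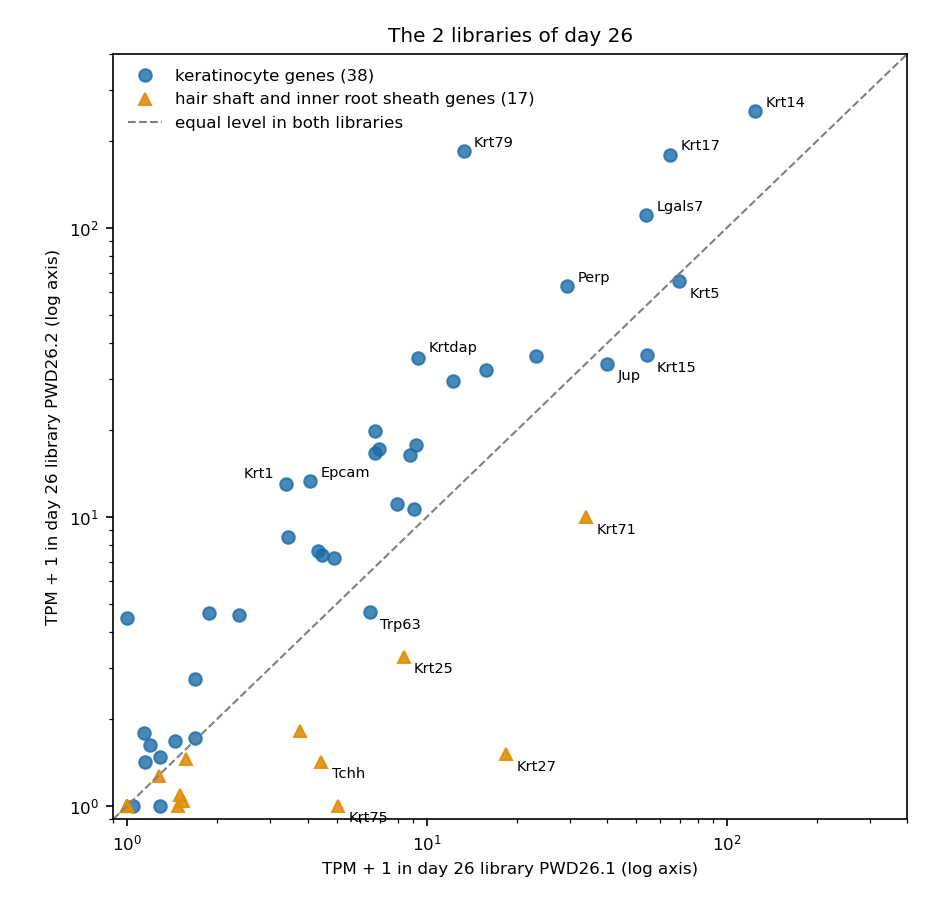
TPM + 1 of the 38 keratinocyte genes and of 17 hair shaft and inner root sheath genes in the 2 libraries of day 26, on log axes, with a line of equal level. Krt79 has 184 TPM in PWD26.2 and 12.25 TPM in PWD26.1, and Krt71 and Krt27 lie on the other side of the line.

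Further epithelial genes were followed in lists. Between day 12 and day 26, 5.26% of all tested genes were called higher and 11.8% lower. Of the other epithelial regulators and secreted proteins 7 of 12 tested rose between day 12 and day 26 and 0 fell. Trim29, a factor of stratified epithelia, was at 9.05 and 19.5 TPM at day 26, against 0.34 and 0.5 TPM at day 12 (log2 change 3.34, SE 0.36, adjusted p = 0.000831), and Fgfbp1, a binding protein of fibroblast growth factors, at 6.62 and 13.9 TPM at day 26, against 0 and 0 TPM at day 12 (log2 change 3.41, SE 0.37, adjusted p = 0.000858). Of the other cornification genes 4 of 6 tested rose and 0 fell, with Ly6d at 23.3 and 85.9 TPM at day 26, against 0 and 0 TPM at day 12 (log2 change 5.52, SE 0.50, adjusted p = 0.000402) and Lypd3 at 6.9 and 11 TPM at day 26, against 0 and 0 TPM at day 12 (log2 change 3.28, SE 0.33, adjusted p = 0.000596). Of the laminin-332 and anchoring genes 3 of 6 tested rose and 0 fell, with Fermt1, kindlin-1, at 2.45 and 2.28 TPM at day 26, against 0 and 0 TPM at day 12 (log2 change 1.75, SE 0.29, adjusted p = 0.00517) and Lamb3, a laminin-332 chain, at 2.61 and 2.84 TPM at day 26, against 0.32 and 0.06 TPM at day 12 (log2 change 1.65, SE 0.33, adjusted p = 0.0112). Fermt1 and Lad1, which also rose, reached 1 TPM at day 26 alone, so they were tested only through the day where they were high.

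Other lists were mixed, where 5.26% of all tested genes were called higher and 11.8% lower. Of other junction genes 2 rose and 1 fell of 5 tested. The gene that fell was Cdh3, P-cadherin, at 5.03 and 1.85 TPM at day 26, against 16.9 and 20.2 TPM at day 12 (log2 change -2.23, SE 0.38, adjusted p = 0.00545). Of other desmosome and plakin genes 1 rose and 1 fell of 4 tested, namely Ppl, periplakin (log2 change 1.87, SE 0.43, adjusted p = 0.0191), and Pkp2, a plakophilin of simple epithelia and heart (log2 change -1.57, SE 0.31, adjusted p = 0.0104). Of the simple and other keratins 2 rose and 0 fell of 5 tested. Krt20 was at 6.37 and 2.2 TPM at day 26, against 0 and 0 TPM at day 12 (log2 change 2.28, SE 0.41, adjusted p = 0.00702), and Krt8, of simple epithelia, at 1.09 and 1.57 TPM at day 26, against 0.04 and 0 TPM at day 12 (log2 change 1.18, SE 0.31, adjusted p = 0.0327). Krt8 reached 1 TPM at day 26 alone, so it was tested only through the day where it was high. Krt20 also marks Merkel cells, and their part was not tested. Of their 3 tested markers Krt20 rose, Piezo2 fell (log2 change -1.13, SE 0.28, adjusted p = 0.0255) and Sox2 did not pass (log2 change 0, SE 0.40, adjusted p = 0.997). Their factor Atoh1 was listed at 0 in all libraries.

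Markers of other cell types moved with the days as well, and their part in the keratinocyte values was not tested. The shares to set beside their counts are 5.26% of all tested genes called higher and 11.8% lower. Of 7 macrophage markers tested 5 fell between day 12 and day 26, and the list summed to 611 and 1143 TPM at day 26, against 4452 and 3003 TPM at day 12; the lowest p were those of Cd68 (log2 change -3.12, SE 0.30, adjusted p = 0.000528) and Lyz2 (log2 change -2.25, SE 0.30, adjusted p = 0.00192). Of 12 fibroblast and sort markers 5 rose, among them Dcn (log2 change 1.79, SE 0.17, adjusted p = 0.000437) and Col3a1 (log2 change 1.24, SE 0.22, adjusted p = 0.0072), and 2 fell, and the list summed to 108495 and 98490 TPM at day 26, against 42198 and 55482 TPM at day 12. Tagln, whose promoter drives Cre, was at 65 and 141 TPM at day 26, against 254 and 175 TPM at day 12 without passing (log2 change -1.13, SE 0.35, adjusted p = 0.0599). Of 2 sebocyte genes tested Soat1 fell (log2 change -1.26, SE 0.20, adjusted p = 0.00442) and Cidea did not pass (log2 change 1.92, SE 0.65, adjusted p = 0.078).

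The genes whose levels ran most like the keratinocyte genes were found by Pearson's r over the 8 libraries between log2(TPM + 1) and the mean scaled profile of the 27 tested members. Of 15035 other tested genes 166 had r above 0.9. Ly6d was first (r = 0.984), followed by the protocadherin gene Pcdh10 (r = 0.981), Tasp1 (r = 0.98), the potassium channel gene Kcnk2 (r = 0.979), Dhrs7 (r = 0.977) and the creatine kinase gene Ckmt1 (r = 0.976). Gm4952, Serpinb5, Pcdhb14, Avpi1, Mir22hg, Fxyd3, Trim29, Gm13306 and Acbd4 made up the rest of the first 15, down to r = 0.965. Dhrs7 was at 127 and 155 TPM at day 26, against 54.1 and 68.7 TPM at day 12, so the genes alike in order were not alike in level. The libraries share days, and the r values are a description.

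The authors' deposited table of clusters lists 17 of the 38 genes, 8 in cluster C4 (of 688 genes), 8 in cluster C5 (of 397) and 1, Itga6, in cluster C2 (of 1244). All clusters together list 4120 distinct genes, where the authors' table of all genes holds 43346. In the authors' deposited table C4 holds Krt5, Krt14, Krt15, Krt17, Lgals7, Perp, Sfn and Sprr1a, and C5 holds Col17a1, Dsc3, Dsg1a, Dsg3, Esrp1, Krt16, Pkp3 and Trp63. The authors' deposited table gives p-values of 0.000117 for Krt5 and 0.00125 for Krt15, the lowest of the 17, and the test behind them is not given in the sources used here. Of the 17, 13 rose between day 12 and day 26 in the limma fit, where 5.26% of all tested genes were called higher. Itga6 fell, and Dsg1a, Dsg3 and Esrp1 were too low to be tested. The clusters were deposited with the same data, so this count is no independent check. The other 21 genes, among them Krt79, Krt6a, Krt1 and Krtdap, are in no cluster.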

How the data were processed

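RNA of sorted tdTomato-high cells was sequenced from 8 mouse samples, 2 per day. Per the submitters' processing notes, RSEM 1.12.2 and the genome mm10 were used; no source used here names the aligner or the annotation. The deposited signal per gene and library was read as TPM plus 1, because it summed to a constant once 1 was subtracted per gene. The authors' deposited p-value per gene in the cluster tables was used as it stands, and 40 further value columns were not used. The numbers in column names differ from those in sample titles for 3 of the 4 days, all but day 26, and each column was matched to its day alone.

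The 15062 genes that reached 1 TPM in 2 or more libraries were tested on log2(TPM + 1) with limma 3.58.1 in R 4.3.3 (trend; day as a factor; residual degrees of freedom 4, prior 4.76), with Benjamini-Hochberg adjustment over all tested genes. This scale understates the change of low genes. Rose and fell mean an adjusted p under 0.05. The fit was tested on simulated data. Alternatives changed the pseudocount, filter, scaling, variance model and libraries. Members, lists and tests were chosen with earlier results of these data known. In each role the genes with the highest mean TPM, and any that went against its role, are given in every library; of other lists the 2 genes of lowest p are named, and further genes of those lists were named after their values were seen. A gene of the other junction list is not reported here. Positions are from GENCODE vM21 and promoters from RefSeq, on GRCm38. SMART-seq2 keeps no strand, so reads cannot be assigned by strand where genes overlap. Of the words in Sbsn transcripts 6.96% occur in those of Tmem147os, and reads from that part alone cannot be placed with certainty.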

Additional observations from a re-analysis of the deposited data

How the results depend on the processing

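No paired analysis was possible because the value columns do not carry the replicate numbers of the sample titles at days 12, 15 and 21, so that their columns could not be tied to a number. As deposited, 1, 1, 0, 23 and 18 of the 38 genes were called for day 15 against day 12, day 21 against day 15, day 26 against day 21, day 26 against day 12 and any difference among the 4 days, and 24, 211, 48, 2562 and 1866 of all tested genes. With log2(TPM + 0.1) the calls of the 38 genes were 5 for day 15 against day 12 and the calls of all genes were 134 for day 21 against day 15, 15 for day 26 against day 21. With no filter the calls of the 38 genes were 0 for day 15 against day 12, 0 for day 21 against day 15, 11 for any difference among the 4 days and the calls of all genes were 3 for day 15 against day 12, 44 for day 21 against day 15, 10 for day 26 against day 21, 1667 for day 26 against day 12, 781 for any difference among the 4 days. After quantile normalization the calls of the 38 genes were 0 for day 15 against day 12, 1 for day 26 against day 21 and the calls of all genes were 4 for day 15 against day 12. With median-of-ratios size factors the calls of the 38 genes were 0 for day 15 against day 12, 1 for day 26 against day 21 and the calls of all genes were 3 for day 15 against day 12, 116 for day 21 against day 15. Without the intensity trend the calls of the 38 genes were 0 for day 15 against day 12 and the calls of all genes were 1 for day 15 against day 12, 51 for day 21 against day 15, 12 for day 26 against day 21. With array quality weights the calls of the 38 genes were 2 for day 15 against day 12 and the calls of all genes were 14 for day 26 against day 21. Without PWD15.1 and PWD21.3 the calls of the 38 genes were 0 for day 15 against day 12, 0 for day 21 against day 15, 8 for any difference among the 4 days and the calls of all genes were 0 for day 15 against day 12, 0 for day 21 against day 15, 0 for day 26 against day 21, 462 for any difference among the 4 days. Leaving out each library in turn gave calls among the 38 genes of 0 to 4 for day 15 against day 12, 0 to 1 for day 21 against day 15, 0 to 2 for day 26 against day 21, 16 to 23 for day 26 against day 12, 11 to 18 for any difference among the 4 days, and among all genes of 0 to 53 for day 15 against day 12, 2 to 324 for day 21 against day 15, 0 to 77 for day 26 against day 21, 773 to 2551 for day 26 against day 12, 656 to 1849 for any difference among the 4 days; the lowest for day 26 against day 12 came without PWD12.2. Jup turned to 0.088 and 0.177 with the scalings, and ranged from -0.163 to 0.072 with a library left out (0.057 without PWD12.3, 0.072 without PWD26.2). The scalings moved the median log2 change of all genes between day 12 and day 26 to -0.013 and -0.004, against -0.199 as deposited. The cause of these shifts was not tested.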
